A study of Oryza sativa with 20 samples.

Results

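The falling loci are rice genes whose transcripts were lower after 12 h and again after 24 h of feeding by the rice leaf folder Cnaphalocrocis medinalis than in unfed leaves. They were chosen by their measured values. Among loci whose identifier begins with OS, the mean of log2(FPKM + 1) over the 4 libraries of 12 h and over the 4 of 24 h each had to lie at least 0.8 below that of 0 h. FPKM is fragments per kilobase of gene, scaled to the size of the library, and a locus also needed 0.5 FPKM or more in at least 4 of the 20 libraries. The choice gave 146 loci of the 20343 OS loci past that filter (0.718%), and the filter itself removed none. The number rests on the pseudocount, and with 0.1 in place of 1 the rule gave 275 loci. By comparison, 248 loci were higher by 0.8 or more at both times.

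The libraries came from leaves of rice, Oryza sativa (strain Minghui 63 in the study's methods), at an age of 5 weeks. A single starved caterpillar of the third instar was enclosed on the second leaf from the top for 1, 6, 12 or 24 h, and the 0 h plants carried the same Parafilm bag with no insect. Feeding started at different times and all leaves were collected together, so the 5 groups share the hour of harvest. Each of the 4 libraries per time point held leaves merged from 5 plants. The libraries held 17796577 to 22090180 fragments on genes.

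Leaf folder larvae roll a leaf and scrape the green mesophyll between its veins. In rice, as in other plants, chewing insects induce jasmonate signalling and defence genes, while many genes of growth and photosynthesis are known to decline under attack. The level of an mRNA declines when its synthesis slows or its decay speeds up. In these bulk leaf samples, fewer cells of a type and less RNA per cell cannot be told apart.

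The values carry identifiers without gene names, and the RefSeq table used here uses other identifiers, so that it matched none of the OS loci tested. No function is therefore given to any locus, no gene list or leaf cell marker could be checked, and the labelled tissue was not tested against markers. The text of the study gives identifiers for 9 loci, which it reports as responding to feeding, several of them as induced or upregulated. All 9 passed the filter and none was among the falling loci. Nothing is read from this, since the falling loci are 0.718% of the loci tested and the 9 were picked for their response. The loci are described below by level, by time course and by position.

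The mean FPKM of the falling loci at 0 h ranged from 1.74 to 5260 with a median of 21.6, compared with 8.61 for all OS loci tested. Of the 146 loci, 22 were above 100 FPKM, 5 were above 1000 and 18 were below 5. The number of fragments behind each locus, averaged over 20 libraries, had a median of 476 and ranged from 6.7 to 59784, and 1 locus was below 10. An FPKM of 0.5 or more was found in all 20 libraries for 136 loci, and 3 loci were at 0 in at least 1 library. Over the feeding times of 1, 6, 12 and 24 h their median was 19.6, 26.0, 8.05 and 8.63 FPKM. That of all loci tested was 8.79, 9.94, 8.32 and 9.19. The rule used the levels at 0, 12 and 24 h, so their place relative to all loci at those times is partly set by the choice.

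Added up within each library, they made up 2.15% to 2.18% of the fragments on genes at 0 h and 1.83% to 1.95% at 1 h. At 6 h the shares were 2.51%, 2.33%, 2.32% and 2.79% for replicates 1 to 4. All 4 libraries of 6 h were thus above all libraries of the other times. At 12 h the share was between 1.01% and 1.05%. At 24 h it was 1.03%, 0.806%, 0.778% and 0.882%, below every library of 0, 1 and 6 h. The rule required lower levels at 12 h and 24 h than at 0 h, so the order of these shares is partly set by the choice. A few abundant genes set part of these shares, since without the top 2 falling loci they were 1.49% to 1.56% at 0 h and 0.569% to 0.600% at 24 h. The share of the 10 most abundant genes moved as well, from between 9.80% and 10.8% at 0 h to between 7.20% and 8.52% at 6 h, and its part in the result was not tested.

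The level was also taken relative to 0 h. For each locus the mean log2(FPKM + 1) at 0 h was subtracted, and the median of the 146 loci was taken in each library. It was -0.23, -0.16, -0.22 and -0.23 for replicates 1 to 4 of 1 h. At 6 h it was 0.14, 0.13, 0.14 and 0.36. The 12 h libraries had -1.13, -0.97, -1.11 and -1.19. Those of 24 h had -1.19, -1.22, -1.17 and -1.25. The unfed libraries lay between -0.04 and 0.05. Every library of 12 h and 24 h was below every other library, and every 1 h library was below every 0 h library. The rule sets the place of 12 h and 24 h below 0 h. It also chose loci high at 0 h, which tends to put the other times below 0 h, so this order is a description. At 6 h the medians of all loci were 0.08 to 0.15, and those of the falling loci after median-of-ratios scaling were 0.04, -0.04, -0.02 and 0.24.

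**Figure D1:**
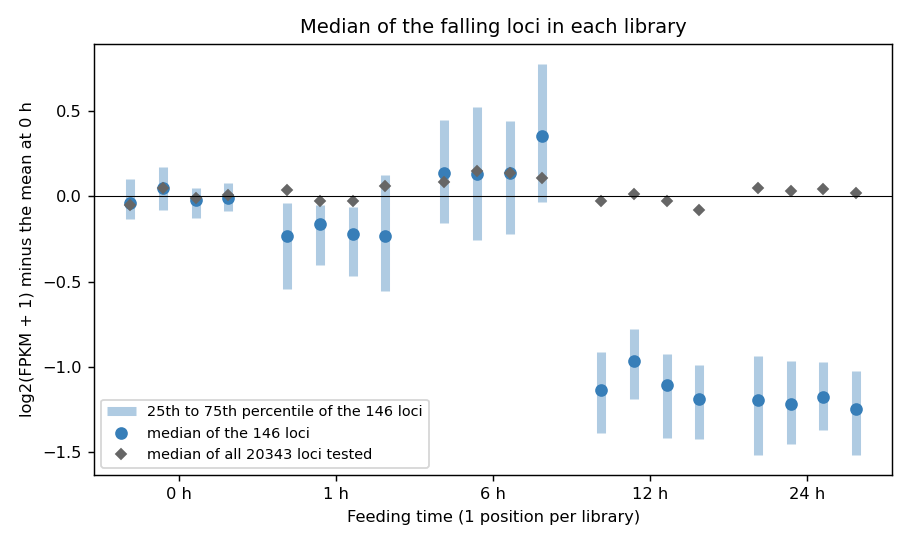
Median of the 146 falling loci in each library (blue points), as log2(FPKM + 1) minus the mean of each locus at 0 h, with bars for the middle part of the loci from the 25th to the 75th percentile. Grey diamonds show the median of all 20343 loci tested, which stayed near 0 while the falling loci lay at -0.97 to -1.25 in the 8 libraries of 12 h and 24 h. The place of the falling loci below 0 h at 12 h and 24 h follows from the rule.

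The differences at 12 h and 24 h chose the loci and are given as a description. At 12 h the difference from 0 h ranged from -2.10 to -0.80 with a median of -1.09, and at 24 h from -3.09 to -0.81 with a median of -1.18. The medians over all loci tested were -0.03 and 0.03. As ratios of mean FPKM to 0 h, the median was 0.42 at 12 h (0.0368 to 0.58) and 0.382 at 24 h (0.0827 to 0.56). Both lowest ratios came from the locus with 6.7 fragments on average. Its FPKM at 0 h was 0.504, 0.359, 0.244 and 6.57 in replicates 1 to 4, so these 2 ratios rest on replicate 4. Both differences were beyond -1 for 76 loci and beyond -1.5 for 13. A difference beyond -2 was present in 3 loci at 12 h and in 6 at 24 h. All 4 libraries of 12 h were below all 4 of 0 h for 133 loci (91.1%), compared with 13.1% of all loci tested. At 24 h this held for 130 loci (89.0%, compared with 11.2%). In the limma-trend fit, 134 of the 146 loci had a Benjamini-Hochberg adjusted p (FDR) under 0.05 at 12 h (91.8%, compared with 10.5% of all loci called lower), and 136 at 24 h (93.2%, compared with 9.59%). Nothing is read from these counts, because the rule used the same contrasts.

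The threshold fell in a continuous range of values. The 3 loci just inside it had a weaker difference of -0.8039, -0.8038 and -0.8023. The 3 just outside had -0.7996, -0.7983 and -0.7964. The weaker difference lay between 0.8 and 0.9 below 0 h for 40 falling loci, and 62 other loci lay between 0.7 and 0.8 below. When each library of 0, 12 or 24 h was left out in turn, 101 of the 146 loci met the rule in all 12 cases.

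The lower level at 12 h was close to that at 24 h in most loci. The means at 12 h and 24 h were within 0.3 of each other on the log2(FPKM + 1) scale for 107 of 146 loci, with a median absolute difference of 0.19. This closeness was not compared with that of all loci tested. The level was lower at 24 h than at 12 h in 100 loci and higher in 46, whereas 65.8% of all loci tested were higher. The median difference was -0.11, compared with 0.07 over all loci tested. In the limma-trend fit, 12 loci were called lower at 24 h than at 12 h (8.22%, compared with 0.85% of all loci tested). Only 1 was called higher (0.685%, compared with 3.08%). The rule bounded both times from above, so these counts are also a description. Across the 146 loci, the differences at 12 h and 24 h had a Pearson's r of 0.63 and a Spearman's rho of 0.49. Both share the 0 h libraries, and loci are not independent replicates.

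At the early times the 0 h libraries are again shared with the rule, and the values are given side by side. The median difference from 0 h was -0.19 at 1 h, with 111 loci below 0 h and 35 above (24.0%, compared with 52.8% of all loci tested). At 6 h it was 0.17, with 95 loci above 0 h and 51 below (65.1% above, compared with 68.7% of all loci). The medians over all loci tested were 0.01 and 0.11. Median-of-ratios scaling of the FPKM values, which put the median of all loci at 0.00 at 6 h, left the falling loci at 0.03 with 79 above and 67 below (54.1% above, compared with 50.1%), so the position at 6 h relative to 0 h depended on the scaling. A level 0.8 or more below 0 h was present in 10 loci at 1 h (6.85%, compared with 0.31% of all loci) and in 8 at 6 h (5.48%, compared with 0.496%). In the limma-trend fit 20 loci were called lower at 1 h (13.7%, compared with 1.78% of all loci tested) and 7 higher (4.79%, compared with 2.35%). At 6 h, 52 were called higher than at 0 h (35.6%, compared with 23.1%) and 16 lower (11.0%, compared with 5.84%).

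Among the steps between successive times, that from 6 h to 12 h had the largest median difference. The steps differ in length, and no rate per hour was taken. The median difference was -1.20, compared with -0.16 for all loci tested. At 12 h 143 of 146 loci were lower than at 6 h and 3 were higher, whereas 29.8% of all loci tested were higher. After median-of-ratios scaling the median difference was -1.02, with 142 loci lower and 4 higher. Over all loci the median was then 0.00, and 49.55% were higher. The 12 h libraries belong to the rule, so this step has no test.

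**Figure D2:**
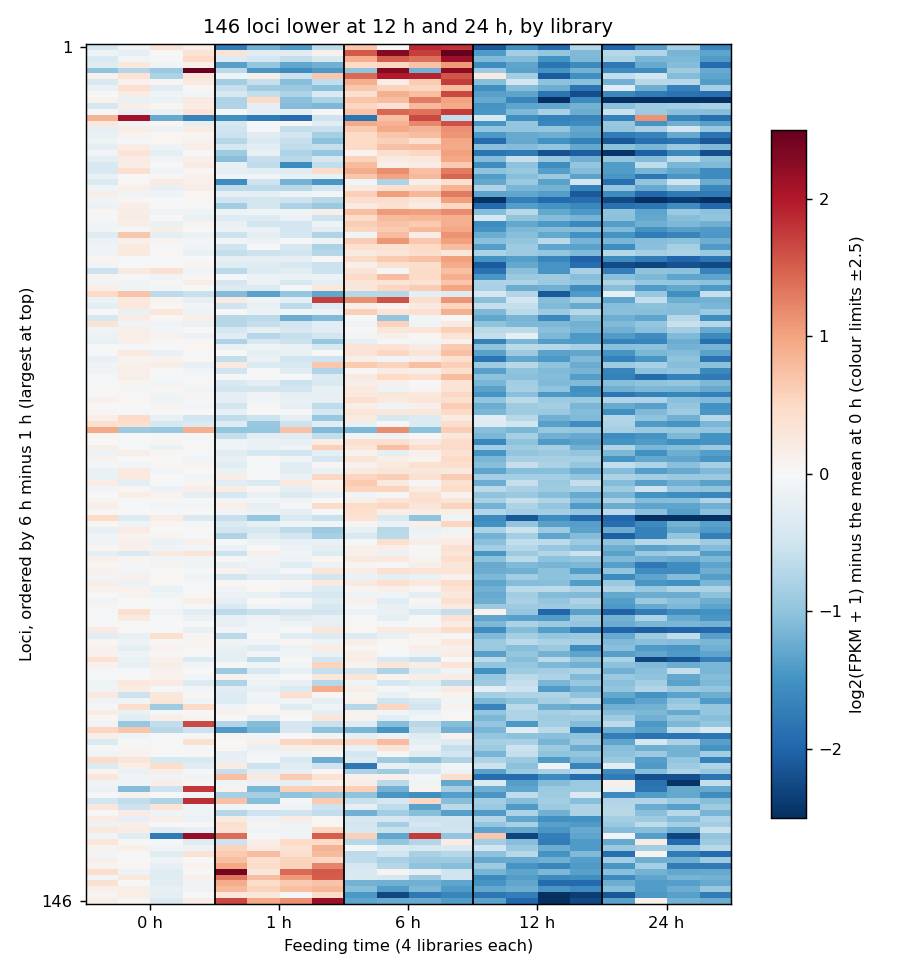
Each row is one of the 146 falling loci and each column a library, coloured by log2(FPKM + 1) minus the mean at 0 h of that locus. Rows are ordered by the difference between 6 h and 1 h, and all rows are blue on average at 12 h and 24 h, as the rule requires, while the 77 loci called higher and the 14 called lower at 6 h than at 1 h lie towards the top and the bottom.

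The difference between 6 h and 1 h comes from libraries that entered the choice only through the filter, which removed no locus. The test of this comparison took its residual spread from all 20 libraries, including those of the rule. The comparison is also not wholly a view from before the fall. At 6 h, 16 of the loci were already called lower than at 0 h (11.0%, compared with 5.84% of all loci tested). The limma-trend test called 77 of 146 loci higher at 6 h (52.7%), compared with 15.2% of all loci tested, and 14 lower (9.59%), compared with 4.67%. With 1 h and 6 h fitted alone, 69 falling loci were called higher and 15 lower. Over all 20343 loci that fit called 2329 higher and 756 lower. The median difference over the 146 loci was 0.42, and that over all loci was 0.11. Above 0 were 110 falling loci (75.3%) and 70.0% of all loci. With replicates taken one by one, all 4 libraries of 6 h were above all 4 of 1 h for 72 loci (49.3%, compared with 16.2% of all loci), and all below for 14 (9.59%, compared with 5.01%).

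These counts depended on the scaling, and the direction of the median did not. After median-of-ratios scaling 54 loci were called higher (37.0%, compared with 7.03% of all loci tested) and 16 lower (11.0%, compared with 8.86%). The median difference of the falling loci was then 0.29, that of all loci 0.00, and 106 falling loci were above 0 (72.6%, compared with 50.3%). The 6 h replicate 4 stood above the other 3 libraries. Without it 63 loci were called higher (43.2%, compared with 11.2% of all loci tested) and 13 lower (8.9%, compared with 3.72%). The 248 loci that were higher at 12 h and 24 h by the same size had 63 loci called higher at 6 h than at 1 h (25.4%) and 17 lower (6.85%), with a median difference of 0.39.

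**Figure D3:**
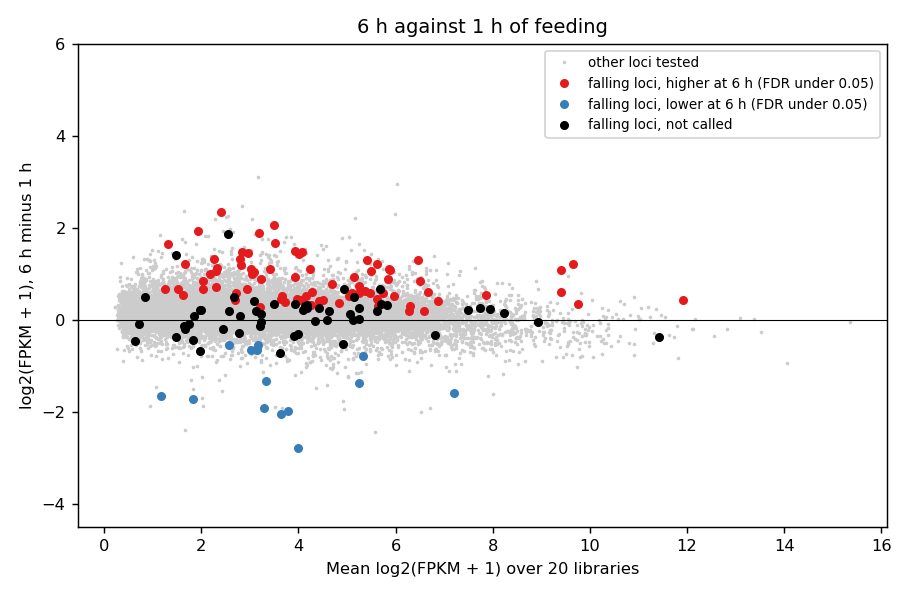
Difference of 6 h minus 1 h in log2(FPKM + 1) against the mean level over 20 libraries, for the falling loci (large points) and the other loci tested (grey). The 77 falling loci called higher (red) lie between 0.19 and 2.35, the 14 called lower (blue) lie between -2.79 and -0.54, and the red points extend to higher mean levels than the blue ones.

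Of the 77 loci that rose from 1 h to 6 h, 74 had their highest mean at 6 h and 3 at 0 h. The limma-trend fit called 49 of the 77 higher at 6 h than at 0 h, compared with 23.1% of all loci tested. The group was formed on 6 h above 1 h and on the late fall, so its course is a description. Their median of mean FPKM was 22.9 in unfed leaves and 19.3, 33.2, 9.08 and 9.29 after 1, 6, 12 and 24 h. On the log2(FPKM + 1) scale the median difference between 6 h and 1 h was 0.73, with a range of 0.19 to 2.35. Relative to 0 h the medians were -0.31 at 1 h and 0.48 at 6 h, and 72 of the 77 loci were below 0 h at 1 h while 74 were above it at 6 h. At 12 h and 24 h the medians were -1.11 and -1.21. In the single libraries of 6 h the medians of these loci were 0.33, 0.37, 0.39 and 0.70, so replicate 4 was again the highest, while those of 1 h lay between -0.34 and -0.22. After median-of-ratios scaling the median difference between 6 h and 1 h was 0.60. The peaks and calls at 6 h relative to 0 h were not counted after scaling, on which that position depended over all falling loci.

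Of the 14 loci that fell from 1 h to 6 h, 13 had their highest mean at 1 h and 1 at 0 h. The group was formed on 6 h below 1 h and on the late fall, so the highest mean could lie only at 0 h or 1 h. Its course is a description. Compared with 0 h, 7 of the 14 were called higher and 1 lower at 1 h, and 11 were called lower at 6 h. Of all loci tested, 2.35% were called higher and 1.78% lower at 1 h, and 5.84% lower at 6 h. Here the median of mean FPKM was 14.4 in unfed leaves and 23.3, 7.93, 4.74 and 5.76 after 1, 6, 12 and 24 h. The median difference between 6 h and 1 h was -1.49, with a range of -2.79 to -0.54. Relative to 0 h the medians were 0.61 at 1 h and -0.74 at 6 h. At 1 h 13 of the 14 loci were above 0 h, and at 6 h all 14 were below it. At 12 h the median was -1.31 and at 24 h -1.11. Of the 14 loci, 2 were lower at 24 h than at 12 h, compared with 54 of the 77. Over all loci tested, 65.8% were higher at 24 h than at 12 h. The difference between 24 h and 12 h was not tested between these groups of loci, which were formed on values of the same libraries.

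The remaining 55 loci were not called in either direction between 1 h and 6 h, which does not show that they were unchanged. Their median difference was 0.15, and single loci ranged from -0.71 to 1.86. In unfed leaves the median of mean FPKM was 22.0, and after 1, 6, 12 and 24 h it was 19.5, 23.5, 8.37 and 8.85. Relative to 0 h the medians at 1, 6, 12 and 24 h were -0.19, -0.08, -1.0 and -1.17. Of the 55 loci, 44 were lower at 24 h than at 12 h, whereas 65.8% of all loci tested were higher.

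**Figure D4:**
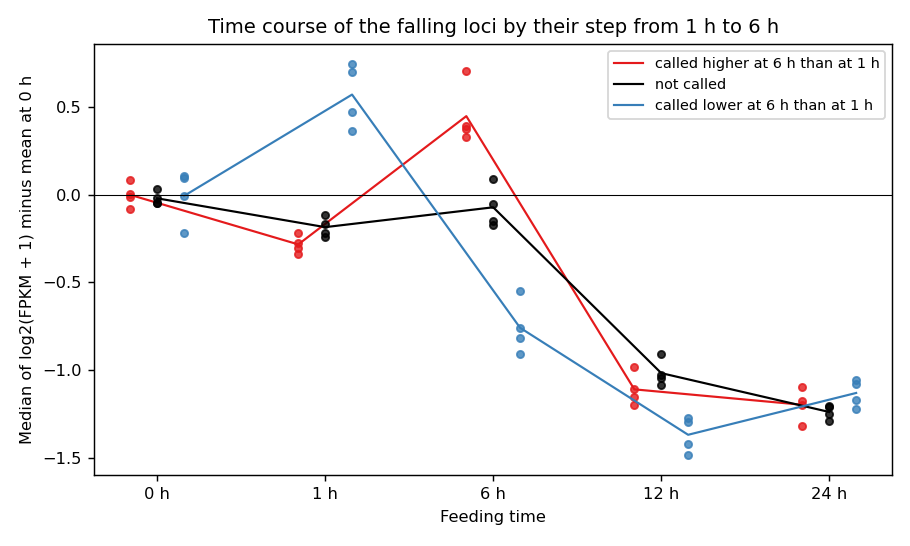
Median of log2(FPKM + 1) minus the mean at 0 h in each library (points) and the mean of the 4 library medians (lines), for the 77 falling loci called higher at 6 h than at 1 h, the 14 called lower and the 55 not called. The line of the first group is highest at 6 h and that of the second at 1 h, and all 3 lie near or beyond -1 at 12 h and 24 h. The groups were formed on the step from 1 h to 6 h and on the late fall, so these courses are a description.

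The largest rise between 1 h and 6 h among the falling loci was found for OS04G0678700, an unnamed locus whose identifier places it on chromosome 4. Its FPKM was 5.25, 6.80, 9.43 and 8.36 in replicates 1 to 4 of 0 h and 1.47, 2.59, 2.11 and 4.26 at 1 h. At 6 h the values were 12.5, 7.25, 29.2 and 27.9. The 12 h libraries had 0.936, 1.87, 1.17 and 4.02 and those of 24 h had 1.09, 2.20, 3.60 and 1.68. All 6 h libraries were above all 1 h libraries, and the 6 h values varied widely, with a mean of 19.2 ± 11.0 (SD, n = 4) compared with 2.61 ± 1.19 at 1 h. The log2 difference between 6 h and 1 h was 2.35 (SE 0.38, FDR = 0.000311 by limma-trend). A two-sided exact permutation test of 4 libraries against 4 gave p = 0.029, the smallest it allows. Loci given by identifier were picked for non-overlapping groups of 1 h and 6 h, which fixes this p for each of them. It is therefore no support beyond the choice. All 1 h libraries were below all unfed ones, with a difference of -1.26 on the log2(FPKM + 1) scale, whereas the 6 h and 0 h libraries overlapped.

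OS04G0675400, also on chromosome 4, was the second of the rising loci. Its FPKM was 9.53, 8.89, 10.4 and 13.6 at 0 h and 13.4, 8.41, 8.45 and 11.4 at 1 h, with overlapping ranges. At 6 h it was 32.4, 55.1, 37.2 and 66.1, above every other library. The 12 h libraries had 3.32, 5.26, 4.85 and 4.33 and the 24 h libraries 6.03, 5.92, 4.10 and 3.62, below every earlier library. The mean at 6 h was 47.7 ± 15.7 (SD, n = 4), 4.58 times the mean of 10.4 ± 2.45 at 1 h. The log2 difference between 6 h and 1 h was 2.06 (SE 0.21, FDR = 3.2e-06 by limma-trend, p = 0.029 by the exact permutation test).

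The largest decline between 1 h and 6 h was that of OS02G0758000 on chromosome 2. Its FPKM was 24.7, 23.4, 17.1 and 25.1 at 0 h and 73.6, 44.4, 50.7 and 101 at 1 h, so all 1 h libraries were above all unfed ones. At 6 h the 4 libraries were close together at 8.33, 8.80, 8.71 and 7.82. The 12 h libraries had 8.17, 4.99, 3.11 and 3.89. Those of 24 h had 8.23, 24.0, 9.26 and 8.87. Replicate 2 of 24 h was thus within the range of the unfed leaves, and the other 3 were well below it. The log2 difference between 6 h and 1 h was -2.79 (SE 0.30, FDR = 4.67e-06 by limma-trend, p = 0.029 by the exact permutation test).

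OS06G0253100 on chromosome 6 declined in a single step between 1 h and 6 h. Its FPKM was 26.1, 27.7, 21.1 and 25.1 at 0 h and 30.4, 30.3, 24.4 and 34.8 at 1 h. The 6 h libraries had 8.55, 4.32, 6.48 and 7.24 FPKM. The 12 h libraries had 6.40, 6.77, 3.57 and 4.09, and those of 24 h had 4.92, 8.60, 9.12 and 6.71. The libraries of 6, 12 and 24 h overlapped one another and were all below those of 0 h and 1 h. The log2 difference between 6 h and 1 h was -2.04 (SE 0.20, FDR = 2.03e-06 by limma-trend, p = 0.029 by the exact permutation test).

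**Figure D5:**
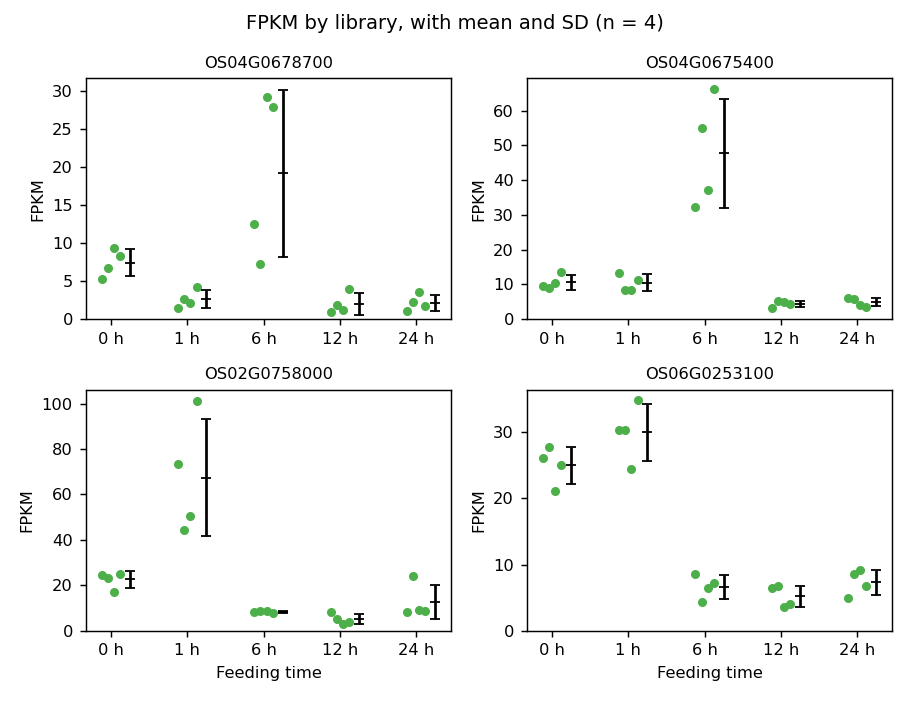
FPKM in each of the 20 libraries (green points) with the mean and SD of 4 libraries (black) for the 2 falling loci with the largest rise and the 2 with the largest decline between 1 h and 6 h. OS04G0678700 and OS04G0675400 have their highest values at 6 h, OS02G0758000 has its highest at 1 h, and OS06G0253100 drops to a mean of 6.65 at 6 h.

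Ranked by mean log2(FPKM + 1) and divided into groups of 49, 49 and 48, the falling loci had 24, 24 and 29 called higher at 6 h than at 1 h, from the lowest to the highest level, and 4, 7 and 3 called lower. Of all loci in the same ranges of level, 15.0%, 16.2% and 16.1% were called higher and 1.81%, 4.76% and 11.7% lower. Differences between these groups were not tested. The medians at 24 h relative to 0 h were -1.13, -1.17 and -1.24 in the same order. The median residual SD between replicates was 0.22 on the log2 scale, compared with 0.16 over all loci tested (15 residual degrees of freedom). A rule on differences of means admits variable loci more readily. Within the 1 h and 6 h libraries, which the differences in the rule did not use, the median SDs were also 0.22 and 0.16.

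The gene length implied by the FPKM values had a median of 1316 bases, compared with 1453 for all loci tested, and ranged from 109 to 4534. It was 1384 for the loci that rose between 1 h and 6 h and 891 for those that fell. By the chromosome number within the identifier, chromosomes 1 and 3 held 25 falling loci each, chromosome 6 held 15, chromosome 4 held 14 and chromosome 5 held 12. Chromosomes 8 and 9 held 11 each, chromosome 7 held 9, chromosomes 2 and 12 held 8 each, chromosome 11 held 5 and chromosome 10 held 3. Per 100 loci tested on a chromosome this was lowest on chromosomes 10 (0.298), 2 (0.328) and 11 (0.478) and between 0.584 and 0.998 on the others, with no test. In the order of identifiers, 10 pairs of falling loci lay at most 2 tested loci apart and involved 19 loci, and 8 of these pairs were direct neighbours. Of the 10 pairs, 7 had the same direction between 1 h and 6 h. Since 75.3% of the falling loci were higher at 6 h than at 1 h, unrelated falling loci would also often share a direction. The correlation of the 10 pairs over the 20 libraries was between 0.38 and 0.98. It includes the 0, 12 and 24 h libraries of the rule, which tends to make any falling loci correlate. Other pairs of falling loci were not compared, so nothing is read from these values. Adjacent loci can overlap or be copies that share reads, so members of such pairs are not taken as separate observations.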

How the data were processed

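According to the study's methods and the submitters' processing notes, the authors aligned filtered paired-end reads to IRGSP-1.0 with HISAT2 (version 2.09), counted them per gene with featureCounts (1.5.0-p3), tested with DESeq2 and deposited FPKM values for 92858 identifiers in each of 20 libraries. DESeq2 was not run here, since FPKM are not counts. Of 37830 OS loci, 29495 were above 0 and 20343 had 0.5 FPKM or more in at least 4 libraries. All 20 libraries were fitted together as 5 group means with limma-trend (limma 3.58.1, R 4.3.3) on log2(FPKM + 1), a scale that understates changes at low FPKM. Calls had a Benjamini-Hochberg adjusted p under 0.05 over the 20343 loci. The test was checked on simulated data. Python 3.11.15 (pandas 2.3.3, numpy 2.4.6, scipy 1.17.1, matplotlib 3.10.9) gave the other values and the plots.

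Whole fragments, recovered from FPKM within 0.01 for 35755 of 35755 identifiers above 0, gave depth and gene length. The depth of 17796577 to 22090180 fragments leaves loci with few fragments limited by counting error. Alternatives were a pseudocount of 0.1, no filter, at least 10 fragments, median-of-ratios and upper-quartile scaling, group medians, the replicate number as a block, 1 h and 6 h fitted alone, limma-voom on the recovered fragments, and each library left out. Loci printed by identifier are the 2 largest rises and 2 largest declines from 1 h to 6 h with an FDR under 0.05, at least 10 fragments on average and non-overlapping groups. The falling loci, lists and tests were chosen with earlier results of these data known. Gene lists and cell markers needed descriptions paired with identifiers and were not used. The RefSeq table was of assembly ASM3414082v1.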

Additional observations from a re-analysis of the deposited data

Results flagged for a closer look

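In 30 groups of 4 libraries the gap of the highest or lowest library to its nearest neighbour was divided by the range of the group, and 4 groups had a library far from the others. About 5% of groups would be expected to by chance. For the median of the falling loci at 6 h this ratio was 0.967, with replicate 4 at 0.356 and the others at 0.132 to 0.139. At 1 h it was 0.835, with replicate 2 at -0.161 and the others at -0.233 to -0.221. For the share of fragments at 12 h it was 0.859, with replicate 2 at 1.054% and the others at 1.012% to 1.018%. For OS02G0758000 at 24 h it was 0.894 on the log2(FPKM + 1) scale, with replicate 2 at 24.0 FPKM and the others at 8.23 to 9.26 FPKM.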

How the results depend on the processing

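The number of falling loci was 275 with a pseudocount of 0.1, which included all 146, since low values then count for more. It was 138 to 150 under the other settings and 138 to 160 with single libraries left out. The calls between 1 h and 6 h, counted over the 146 loci, ranged from 54 to 78 higher and from 13 to 16 lower over the alternatives run for them, which did not include the minimum of 10 fragments or the group medians. With each library left out they were 63 to 78 higher and 13 to 16 lower. The 4 loci given by identifier kept their direction and an FDR under 0.05 in every alternative run, with the highest value of 0.00674 for OS04G0678700 when 1 h and 6 h were fitted alone. Over all 20343 loci, 3082 were higher and 950 lower at 6 h than at 1 h (76.4% higher). Median-of-ratios scaling gave 1431 and 1803 (44.2% higher), upper-quartile scaling 1710 and 1433 (54.4%). Without 1 h replicate 3 it was 2029 and 746, and without 6 h replicate 2 2006 and 760. With limma-voom on the recovered fragments 3032 and 929 were called. With the replicate number as a block, 74 falling loci were higher and 14 lower. Residuals of 1 h and 6 h libraries with the same number correlated at 0.09, -0.11, 0.20 and -0.07. Those with unlike numbers correlated at -0.15 to 0.12. No clear pairing by number was seen between these times, which does not exclude one. Loci with few fragments are limited by depth.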

Other observations

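Identifiers outside the OS series were held to the same rule. Of 3715 past the filter, 59 (1.59%) were at least 0.8 below 0 h at both 12 h and 24 h, 58 of the 3004 beginning with EPlOSAG (1.93%), 1 of the 701 with another prefix (0.143%) and none of 10 beginning with ENSRNA. Of the 59, 36 (61.0%) were higher at 6 h than at 1 h, compared with 55.6% of the 3715. The median differences were 0.19 and 0.04 on the log2(FPKM + 1) scale.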
